A study of Mus musculus with 9 samples.

Results

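Sox2 binding was described at 50 genes that mark or regulate 4 lung epithelial lineages: 18 alveolar type 2 genes, 14 alveolar type 1 genes, 8 secretory airway genes and 10 ciliated airway genes. The genes were taken as a named list, chosen with earlier results of these data known. All 50 were matched by symbol, and they are 50 of 21883 protein-coding genes with a position in RefSeq on the mouse build GRCm38.p6 (mm10). A gene was counted as near Sox2 binding when the summit of a Sox2 ChIP-seq region (the base with the most stacked fragments) lay in its span or no more than 50 kb from either end.

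Chromatin came from lung epithelial cells of C57BL/6 mice aged 8 weeks, with a goat antibody against Sox2. The tested cells carried ectopic Sox2 expression and Nkx2-1 deletion, or ectopic Sox2 expression with Nkx2-1 not labelled as deleted, and wildtype cells were the baseline for both. Each condition has 1 Sox2 ChIP library with a list of summits, out of 9 libraries. The other 6, inputs and IgG controls, are not analysed here. How Sox2 was expressed, how Nkx2-1 was removed, which epithelial cells were taken and how many animals were used is not stated in the labels. A summit list holds no RNA level, so neither the cell type nor the state of Sox2 and Nkx2-1 could be checked against markers. Each condition being a single library, differences between the lists have no replicate check and no p-value. All intervals are exact 95% intervals and cover counting error only.

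The deletion list held 2589 summits, the ectopic Sox2 list 229 and the wildtype list 552. The mean ChIP coverage recovered from the listed values was 1.45 fragments per position in the deletion library, 0.764 in the ectopic Sox2 library and 0.963 in the wildtype library. A median summit rested on 38, 23.5 and 24 fragments in the same order of libraries, so the deletion library was both the deepest and the one with the longest list.

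Alveolar type 2 cells make surfactant, whose protein genes such as Sftpb and Sftpc are direct targets of Nkx2-1, and they can turn into the flat alveolar type 1 cells that line the gas-exchange surface. In the airway, secretory club cells release secretoglobins and ciliated cells move mucus with motile cilia built under Foxj1 and the Rfx factors. Sox2 is a high-mobility-group transcription factor of the proximal airway and oesophagus, and it is normally low in the alveolus. Nkx2-1 is the transcription factor that gives lung epithelium its identity.

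With Nkx2-1 deletion, most of the Sox2 summits near these genes lay within 50 kb of alveolar type 1 genes. Of these 12 summits, 6 were at Ahnak. A single summit of the list lay near an alveolar type 2 gene. Counting only the protein-coding gene nearest each summit, 3 of 14 alveolar type 1 genes were hit, against 8.51% of all genes. A summit lay within 50 kb of 13 of the 50 genes (26%) with Nkx2-1 deletion, where 13.1% of all protein-coding genes had one. In the ectopic Sox2 list 1 of the 50 genes had a summit, against 1.53% of all protein-coding genes, and in the wildtype list 2 of 50 had one, against 2.85%. By lineage, the deletion list had a summit near 7 of 14 alveolar type 1 genes (50%), 3 of 8 secretory genes (37.5%), 2 of 10 ciliated genes (20%) and 1 of 18 alveolar type 2 genes (5.56%). The ectopic Sox2 list had 1 ciliated gene, Tubb4b, and the wildtype list had Tubb4b and the alveolar type 1 gene Clic5. The shares in the ectopic Sox2 and wildtype lists are thus near those of all genes. All 4 summits behind Scgb1a1, 1 of the 3 secretory genes, lie at Ahnak, and without chromosome 19 the secretory count was 1 of 6. No test was run between the lineages, whose lists are short. Because the genes were chosen with earlier results of these data known, their shares are a description and not a test against all genes.

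The 13 genes rested on 17 separate summits, because neighbouring genes share some. Alveolar type 1 genes had 12 of them and secretory genes 6, with 4 counted for both, while ciliated genes had 2 and alveolar type 2 genes 1. The remaining 37 genes had no summit within 50 kb in any of the 3 lists.

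**Figure D1:**
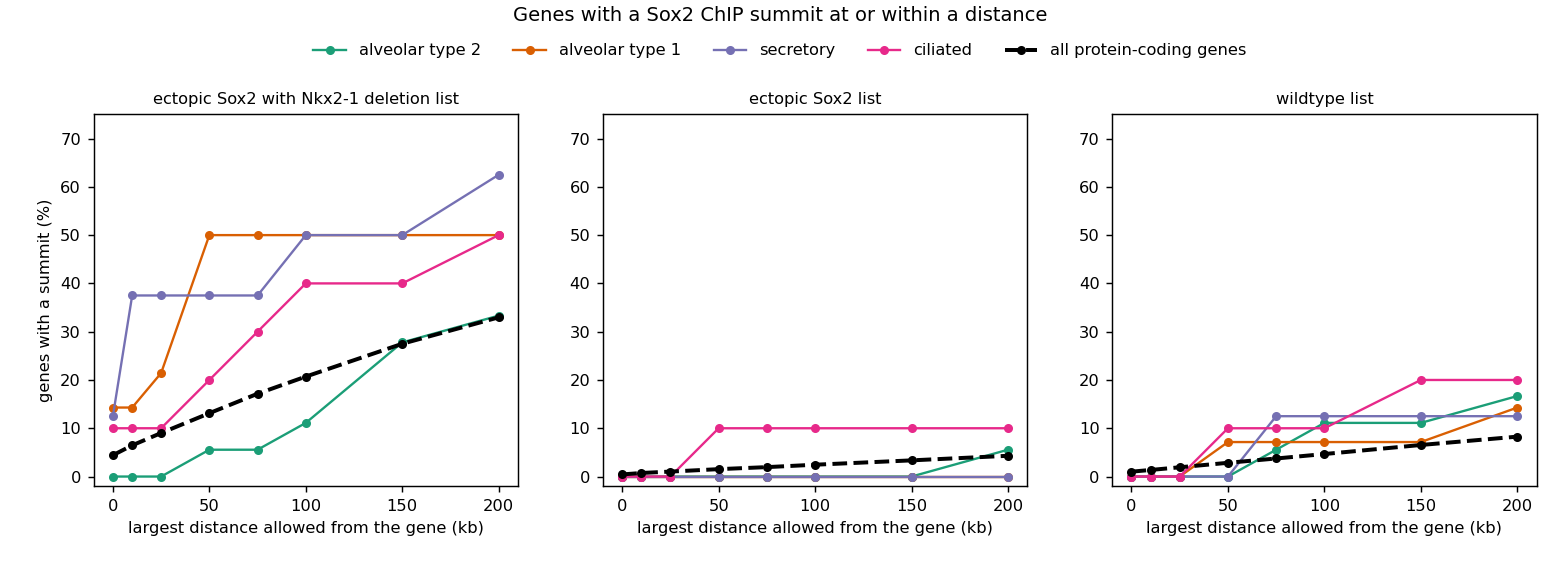
Percentage of genes (y axis) with a Sox2 ChIP summit inside the gene or within the distance on the x axis (kb), for the 4 lineages (coloured lines) and all 21883 protein-coding genes (dashed black line), with 1 panel per list. In the deletion panel the alveolar type 1 line steps up to 50% at 50 kb and stays there, and the alveolar type 2 line lies below all genes up to 100 kb.

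The order of the lineages in the deletion list depended on the distance allowed. Inside or within 10 kb of the gene, 3 of 8 secretory genes, 2 of 14 alveolar type 1 genes, 1 of 10 ciliated genes and 0 of 18 alveolar type 2 genes had a summit with Nkx2-1 deletion, where 6.46% of all genes did. None of the 50 did with ectopic Sox2 or in wildtype, where 0.736% and 1.37% of all genes did. Of the 7 alveolar type 1 genes near a summit, 5 thus had none closer than 10 kb, while 7 of their 12 summits lay within 10 kb, at Ahnak and Rtkn2. At 100 kb the counts were 4 of 8, 7 of 14, 4 of 10 and 2 of 18 in the same order of lineages, where 20.7% of all genes had one. At that distance the ectopic Sox2 list had Tubb4b alone (2.45% of all genes), and the wildtype list had 5 of the 50, namely Abca3, Il33, Clic5, Aldh1a1 and Tubb4b (4.66% of all genes). At 200 kb the alveolar type 2 share of 33.3% was near the 33.0% of all genes.

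Among alveolar type 1 genes, the membrane scaffold gene Ahnak, which encodes a giant protein linked to the cell cortex, had the most summits. The deletion list placed 6 summits at Ahnak, 4 of them inside its 87.7 kb span, 1 lying 6.29 kb upstream, nearer to Eef1g, and 1 just 202 bp beyond its far end. The other lists had none there, and their nearest summits lay 19751 kb away with ectopic Sox2 and 5426 kb away in wildtype. Of all protein-coding genes, 6 (0.0274%) had 6 or more summits within 50 kb in the deletion list.

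The strongest of the 6 lay at chromosome 19, 9071501 to 9071823 (mm10), inside Ahnak, with 91 fragments (interval 73.3 to 112). Its fold, the authors' ratio of ChIP pileup over local control background, was 5.65, a value above 48.2% of the summits in that list. The other 5 rested on 54 to 64 fragments with folds from 3.98 to 5.62. Control background was high along the locus, with values of 4 to 6 in the units of the list where the median over all deletion summits was 2. The fragments at Ahnak were thus high for the list while the folds were middling or low.

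Scgb1a1, the club cell secretoglobin that defines secretory cells, lies 6.71 kb beyond the far end of Ahnak. All 4 summits counted for it are Ahnak summits. They lay 6.51, 12.0, 17.6 and 49.98 kb from Scgb1a1, the last only just inside the window, and none had Scgb1a1 as its nearest gene. The 4-summit count placed Scgb1a1 among 43 protein-coding genes (0.196%) with at least 4 summits in the deletion list.

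**Figure D2:**
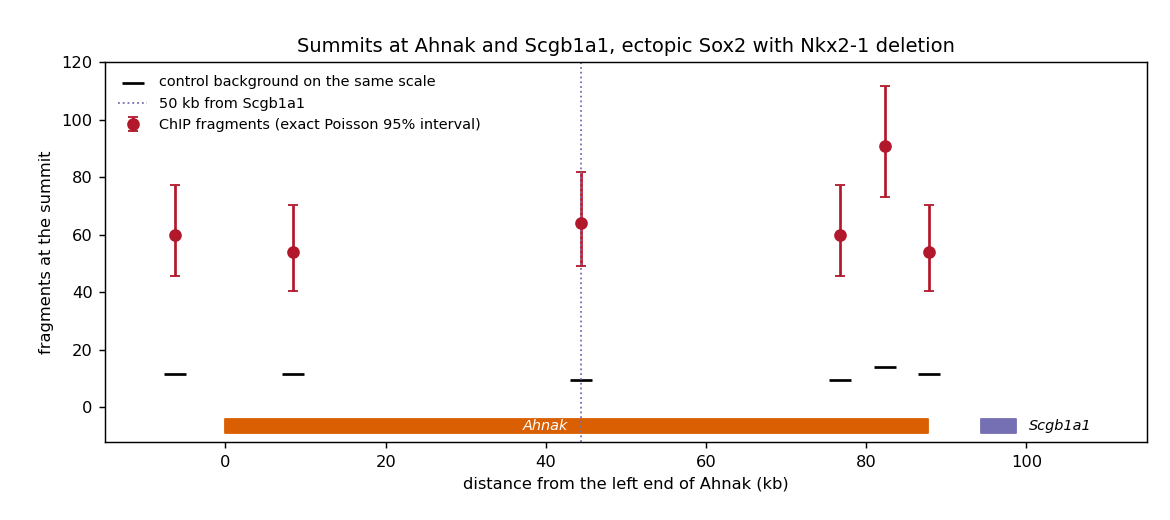
Sox2 ChIP fragments (red points with exact Poisson 95% intervals, y axis) at the 6 summits of the deletion list around Ahnak, by distance from the left end of the gene (x axis, kb), with the control background on the same scale as black dashes. All 6 stand above the control background, and the 4 right of the dotted line lie within 50 kb of Scgb1a1 (purple bar).

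The other 6 alveolar type 1 genes near a summit in the deletion list had 1 each. Gprc5a, an orphan receptor gene, had the most fragments of these, 65 (50.2 to 82.8), at a summit 40.5 kb from it whose nearest gene, Ddx47, lies 1.43 kb away. Clic5, a chloride intracellular channel gene, had 52 fragments (38.8 to 68.2) at chromosome 17, 44327355 to 44327815, which is 47.4 kb downstream of the gene and near no other gene. Spock2, a proteoglycan gene, had 33 fragments (22.7 to 46.3) and the highest fold of the 17 summits, 7.49.

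By the authors' −log10 q the weaker summits were at Pdpn (4.485), Rtkn2 (4.20) and Cav1 (3.67). Their folds of 5.13, 5.35 and 5.22 were above the 4.75 at Gprc5a, and Spock2 had similar fragments. Pdpn, the podoplanin gene and a classical surface marker of type 1 cells, had 34 fragments (23.5 to 47.5) 29.1 kb downstream, closer to Prdm2 than to Pdpn. Rtkn2 had 33 fragments (22.7 to 46.3) inside the gene. Cav1, which encodes the caveolar protein caveolin 1, had 24 fragments (15.4 to 35.7) 22.2 kb upstream of its start, at a summit inside the neighbouring gene Cav2. Of the 7 genes, only Rtkn2 and Ahnak had a summit inside the gene, as did Aldh1a1 and Rfx3 among the other lineages, 4 of 50 in all against 4.41% of all genes.

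Clic5 was the only alveolar type 1 gene with a summit in another list. The summits lay 17 bases apart, with 52 fragments with Nkx2-1 deletion and 18 (10.7 to 28.4) in wildtype. Divided by the depth ratio of 1.51 between these libraries, the deletion over wildtype ratio of fragments was 1.92 (1.10 to 3.48). With the depth ratio taken instead from the regions found in all 3 lists it was 1.53 (0.880 to 2.78), an interval that includes 1. The authors' fold ran the other way, 5.75 with Nkx2-1 deletion and 7.17 in wildtype, with control values of 3 and 1 at the summits. The 7 alveolar type 1 genes with no summit within 50 kb were Hopx, a homeobox gene expressed from early type 1 cells, Ager, the receptor gene that defines the type, the water channel gene Aqp5, Akap5, Emp2, Igfbp2 and Vegfa. Their nearest deletion summits lay from 202 kb away, for Emp2, to 1584 kb away, for Aqp5.

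The Spock2 summit fell on a start site of its own. It lay 27.2 kb downstream of Spock2, and the protein-coding gene Chst3 was closer, at 19.1 kb. The summit lay 24 bp before the start of the long non-coding RNA gene Gm51802. The 250 bases before that start are shown because the summit lies in them. They span chr10:60162392-60162641 on the minus strand (RefSeq, GRCm38.p6), and capitals mark Sox letters (ATTGTT or TTTGTT, either strand), octamer letters (ATGCAAA, the letters of the POU octamer, either strand) and Nkx2-1 letters (CAAGTG or CTCAAG, either strand).
Gm51802: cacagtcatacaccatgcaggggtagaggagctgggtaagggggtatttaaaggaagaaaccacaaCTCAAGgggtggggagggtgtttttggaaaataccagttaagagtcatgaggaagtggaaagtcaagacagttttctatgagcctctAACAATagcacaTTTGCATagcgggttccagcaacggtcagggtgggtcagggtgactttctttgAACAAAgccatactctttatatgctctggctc
The nearest Sox letters, AACAAA, ended 3 bp from the summit, and a second run, AACAAT, lay 68 bp from it beside octamer letters in reverse. Of 32851 promoter windows of this length, 24.9% hold Sox letters of either form and 22.6% Nkx2-1 letters, so such matches are frequent.

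Secretory genes near a summit were Aldh1a1, Cyp2f2 and Scgb1a1, all in the deletion list alone. Aldh1a1, a retinaldehyde dehydrogenase gene of club cells, had 51 fragments (38.0 to 67.1) at chromosome 19, 20558909 to 20559218, inside its 151 kb span, with a fold of 5.65. A further 4 deletion summits lay between 65.9 and 87.4 kb from it, and 3 of these were nearest to Anxa1. They include the summit with the most fragments near any of the 50 genes within 100 kb, 140 (118 to 165). The wildtype list had 3 summits in the same outer range, the nearest 66.0 kb away, all in regions that overlapped deletion regions. One of these was the region of the 140-fragment summit, with 49 fragments in wildtype. The ectopic Sox2 list had its nearest summit 8184 kb away.

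Cyp2f2, a cytochrome P450 gene of club cells, had 25 fragments (16.2 to 36.9) at a summit 9.60 kb upstream of its start, with a fold of 5.79 and a control value of 1. No other protein-coding gene lay closer to it. The secretory genes that lacked one in every list were Scgb3a2, Scgb3a1, the mucin gene Muc5b, Bpifa1 and Cckar. Scgb3a2 had its nearest deletion summit 80.0 kb away, with 26 fragments, and Cckar 2114 kb away.

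Ciliated genes near a summit were Rfx3 and Tubb4b. Rfx3, a winged-helix factor that drives cilia genes, had 46 fragments (33.7 to 61.4) with Nkx2-1 deletion at chromosome 19, 27904693 to 27905017, inside the gene and 106 kb from its start, with a fold of 6.82 and a control value of 2. Its nearest summits in the other lists lay 813 kb away with ectopic Sox2 and 411 kb away in wildtype. Foxj1, the master regulator of motile cilia, had none within 50 kb in any list, and its nearest lay 65.3 kb away in the deletion list, 17130 kb in the ectopic Sox2 list and 1672 kb in the wildtype list. The dynein gene Dnah5 was next, at 96.8 kb in the deletion list, 736 kb in the ectopic Sox2 list and 3001 kb in the wildtype list. The multiciliation regulators Mcidas and Ccno, which neighbour each other, lay 287 and 281 kb from the nearest deletion summit, and Myb, Rfx2, Ccdc39 and Tppp3 lay 174 to 1880 kb from it. Tppp3, a marker of ciliated cells, lay 239 kb from the nearest deletion summit and 102 kb from the nearest wildtype summit.

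Tubb4b, a beta-tubulin gene used in cilia, was the only one of the 50 genes with a summit in all 3 lists. That summit lay 41.4 kb from Tubb4b, among 7 protein-coding genes within 50 kb, and in the promoter of another gene, Nrarp, an inhibitor of Notch signalling. It had 56 fragments (42.3 to 72.7) with Nkx2-1 deletion, 42 (30.3 to 56.8) in the ectopic Sox2 library and 69 (53.7 to 87.3) in the wildtype library. Scaled by depth, the ratio of fragments was 0.768 (0.510 to 1.14) for ectopic Sox2 over wildtype, an interval that includes 1, and 0.538 (0.372 to 0.777) for deletion over wildtype. For deletion over ectopic Sox2 it was 0.702 (0.462 to 1.07), or 0.532 (0.350 to 0.813) with depth taken from the regions found in all 3 lists. The authors' fold was 6.50 in the deletion list, 10.7 in the ectopic Sox2 list and 13.0 in the wildtype list, so both measures were lowest with Nkx2-1 deletion once depth was scaled. Without regions found in all 3 lists, 12 of the 50 genes were near a summit in the deletion list, 0 in the ectopic Sox2 list and 1 in the wildtype list, against 12.9%, 1.21% and 2.55% of all genes.

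The Nrarp promoter is shown because it carries the only binding near these genes that all 3 libraries list. The 250 bases before its start span chr2:25180508-25180757 on the plus strand (RefSeq, GRCm38.p6), with capitals for Sox and octamer letters as above.
Nrarp: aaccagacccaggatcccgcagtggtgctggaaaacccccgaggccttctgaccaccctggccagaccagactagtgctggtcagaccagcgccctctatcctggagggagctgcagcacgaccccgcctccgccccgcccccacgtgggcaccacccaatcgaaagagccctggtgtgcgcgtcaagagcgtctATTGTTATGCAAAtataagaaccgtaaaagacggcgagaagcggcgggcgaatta
The Sox letters ATTGTT end 50 bp before the start and are followed directly by the octamer letters ATGCAAA, the joined form known from Sox2 and Oct4 sites in embryonic stem cells. The summits lay 10 bp from the Sox letters in the deletion list, 9 bp in the ectopic Sox2 list and 13 bp in the wildtype list. Of the 32851 promoter windows, 9.42% hold ATTGTT, 4.12% hold ATGCAAA and 1, that of Nrarp, holds the joined ATTGTTATGCAAA. The octamer letters were added after the sequence was read, so this count is a description.

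Alveolar type 2 genes had a single summit within 50 kb. Il33, an alarmin cytokine gene, was the only one within 50 kb in any list, with a deletion summit 30.5 kb upstream of its start at chromosome 19, 29894528 to 29894811. It had 61 fragments (46.7 to 78.4) but a fold of 2.98, above only 1.58% of the list, over a control value of 8. The wildtype list had its nearest Il33 summit 89.5 kb away, and the ectopic Sox2 list 1097 kb away.

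None of the surfactant protein genes had a summit within 200 kb in any list. Of all genes, 33.0% had one in the deletion list, 4.3% in the ectopic Sox2 list and 8.26% in the wildtype list. Most genes thus lacked one as well. Sftpc had its nearest summit 212 kb away in the deletion list and 2587 kb away in both the ectopic Sox2 list and the wildtype list. For Sftpb the distances were 214 kb, 12596 kb and 5124 kb in the same order of libraries. Sftpa1 and Sftpd, the neighbouring genes of the collectin surfactant proteins, had their nearest deletion summits 2705 and 2656 kb away. Nkx2-1 itself had its nearest summit 174 kb away in the deletion list.

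For the lipid transporter gene Abca3, which loads surfactant into lamellar bodies, the nearest summit lay 2317 kb away in the deletion list, 3613 kb away in the ectopic Sox2 list and 54.1 kb away, just outside the window, in the wildtype list. Etv5, an Fgf-responsive factor needed to keep type 2 identity, had its nearest summit 290 kb away in the deletion list and 163 kb away in both the ectopic Sox2 and the wildtype list. Of the 18 type 2 genes, 16 lay over 100 kb from every deletion summit. Over the lineage, the median distance to the nearest deletion summit was 336 kb, against 400 kb for all protein-coding genes. It was 125 kb for alveolar type 1, 119 kb for secretory and 206 kb for ciliated genes. The type 2 distances are thus close to those of genes at large.

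**Figure D3:**
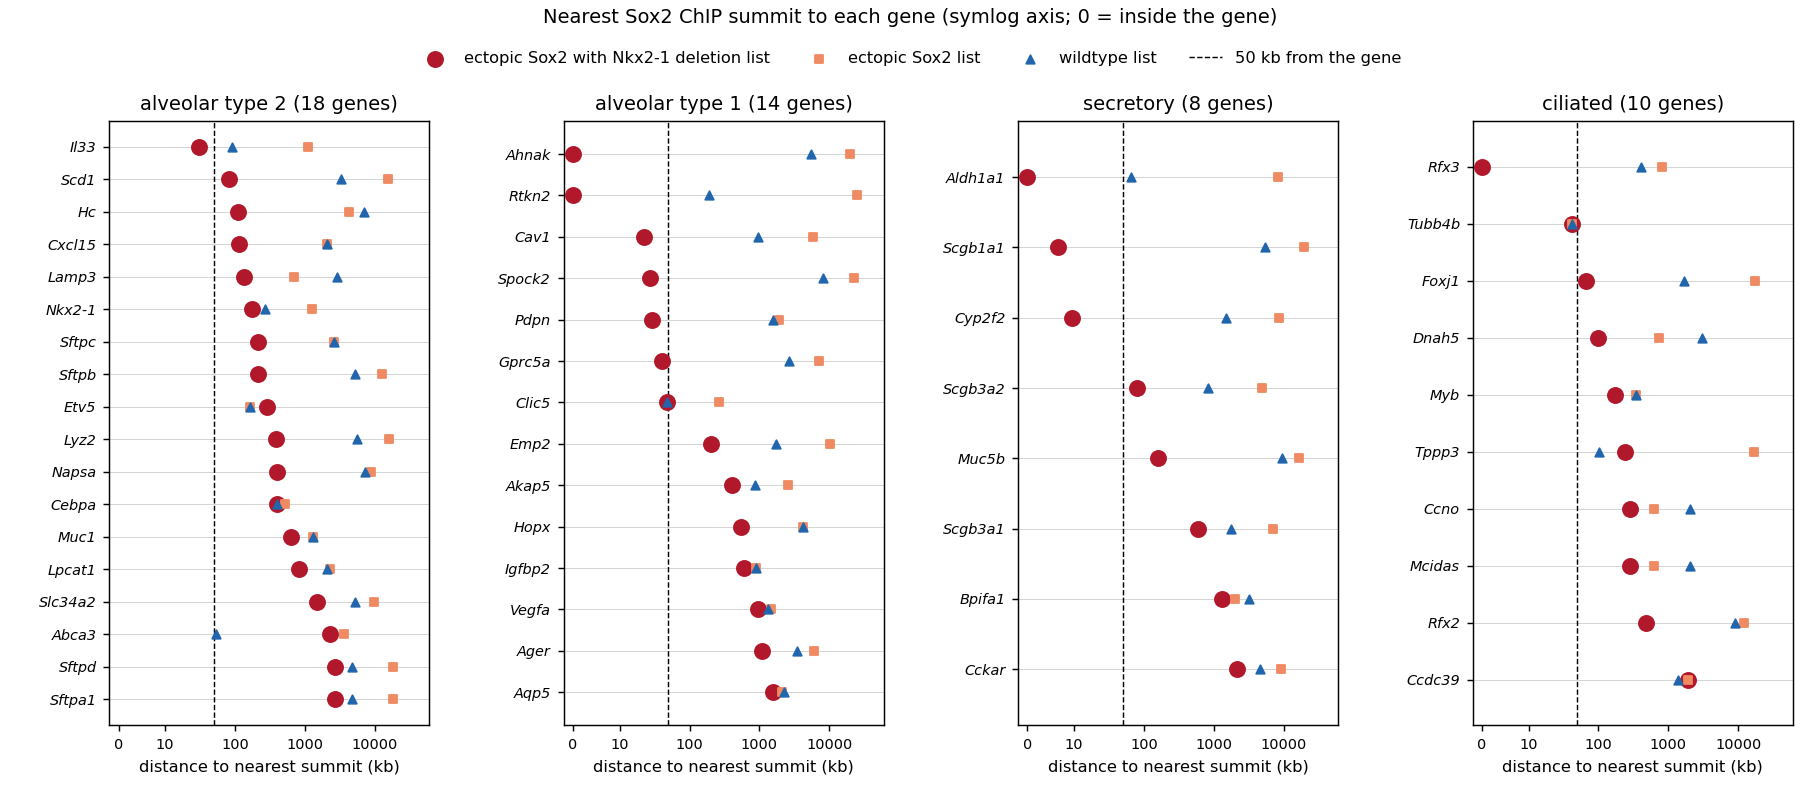
Distance (x axis, kb, symlog scale, 0 for inside the gene) from each of the 50 genes (rows, 1 panel per lineage) to the nearest summit in the deletion list (red circles), the ectopic Sox2 list (orange squares) and the wildtype list (blue triangles). The red circles lie left of the dashed 50 kb line for 7 of 14 alveolar type 1 genes and for 1 of 18 alveolar type 2 genes.

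Members just inside the 50 kb limit in the deletion list were Gprc5a at 40.5 kb, Tubb4b at 41.4 kb and Clic5 at 47.4 kb. Those just outside it were Foxj1 at 65.3 kb, Scgb3a2 at 80.0 kb, Scd1, a fatty acid desaturase gene, at 82.2 kb and Dnah5 at 96.8 kb. Gene size also moved with the counts. The 13 genes near a deletion summit had a median span of 35.0 kb and the other 37 had 9.90 kb, and of all protein-coding genes 23.1% of those spanning at least 50 kb were near a deletion summit, against 10.2% of shorter ones. The part of gene size in the lineage counts was not tested. The lineage medians were 28.5 kb for alveolar type 1, 7.78 kb for secretory, 20.2 kb for ciliated and 13.1 kb for alveolar type 2 genes.

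Chromosome 19 held much of the signal at these genes. It carries 6 of the 50 genes, namely Ahnak, Scgb1a1, Aldh1a1, Rfx3, Il33 and Scd1, and 5 of these were near a deletion summit, while Scd1 was not. Of all chromosome 19 genes 23% were near a deletion summit, against 12.8% of genes elsewhere. Off chromosome 19, 8 of 44 genes (18.2%) were near a deletion summit, made up of 6 of 13 alveolar type 1 genes, 1 of 6 secretory genes, 1 of 9 ciliated genes and 0 of 16 alveolar type 2 genes. Off that chromosome the ectopic Sox2 list had 1 of 44 and the wildtype list 2 of 44, against 1.58% and 2.85% of all genes. Of the 17 summits, 9 were on chromosome 19.

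That chromosome also differed between the lists. It held 5.41% (4.57 to 6.35) of deletion summits, 0.437% (0.0111 to 2.41) of ectopic Sox2 summits and 2.72% (1.53 to 4.44) of wildtype summits, with 3.22% of all genes. The median control background at its summits was 3 in the deletion list and 3 in wildtype, against 2 elsewhere in both. Near its 6 lineage genes the ectopic Sox2 and wildtype lists had no summit, where 0.142% and 2.84% of all chromosome 19 genes had one. The part of this background in the counts was not tested.

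As a set, the 17 deletion summits were not strong ones. Their median fold was 5.35, against 5.73 for all summits in that list, and 5 of the 17 lay above that median. By fragments, 12 of 17 lay above the median of the list, at a median of 54 against 38, with a median control value of 3 against 2. A −log10 q of at least 5 was reached by 10 of the 17 (58.8%), against 62.4% of all deletion summits. Counting these summits only, the deletion list had 8 of the 50 genes (Ahnak, Clic5, Gprc5a, Spock2, Scgb1a1, Aldh1a1, Rfx3 and Tubb4b), where 8.83% of all genes had one. The ectopic Sox2 list had 1 and the wildtype list 2, against 1.18% and 1.87% of all genes. Counting only the protein-coding gene nearest each summit, 7 of the 50 genes were hit in the deletion list, 0 in the ectopic Sox2 list and 1 in the wildtype list, against 8.51%, 1.02% and 2.19% of all genes.

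**Figure D4:**
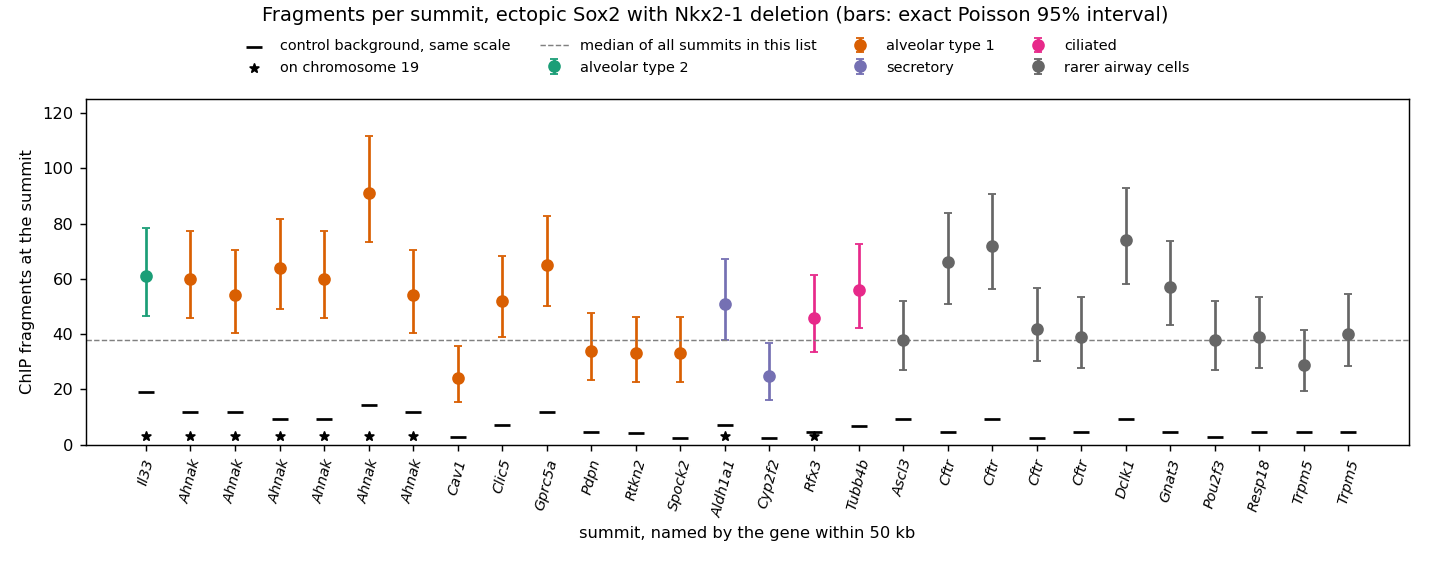
ChIP fragments (y axis, points with exact Poisson 95% intervals) at each summit of the deletion list within 50 kb of the named gene (x axis), coloured by lineage with genes of rarer airway cells in grey, the control background on the same scale as black dashes and the median of all summits in the list, 38, as a dashed line. Summits on chromosome 19 carry a star; Ahnak at 91 fragments is the highest of the lineage genes and Cav1 at 24 the lowest.

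Overlap with the other lists was about as rare as over the whole deletion list. Of the 17 summits, 2 lay in a region that overlapped a wildtype region (Clic5 and Tubb4b) and 1 in a region that overlapped an ectopic Sox2 region (Tubb4b), where 10.5% and 4.60% of all deletion summits did. Scaled to the depth of the ectopic Sox2 library, the 17 summits would rest on 12.6 to 47.9 fragments. All 17 would then have a −log10 p at or above 5.47, the lowest value that library lists, as would 88.5% of all deletion summits, with Il33 at that value. This scaling assumes the same binding and the same control profile and leaves out counting error. The 17 were also picked as listed summits of the deletion library, which favours passing. The part of depth in the difference between the lists was not tested. A region missing from a list may still hold fragments below the caller's threshold.

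Further lung epithelial genes were counted in the same way. With Nkx2-1 deletion a summit lay near 4 of 15 further alveolar type 1 genes (26.7%) and 2 of 16 further alveolar type 2 genes (12.5%), against 13.1% of all genes. The type 2 share is thus near that of all genes, and 1 of the 4 type 1 genes shares its summit with Cav1. The type 1 genes were Cav2, on the summit counted for Cav1, the axon guidance ligand Sema3a, the basement membrane collagen Col4a4 and the calcium-binding S100a6. Sema3a had the highest fold of these, 10.6, inside the gene with 38 fragments (26.9 to 52.2), and S100a6 had 76 fragments (59.9 to 95.1) 15.1 kb from it. In wildtype S100a6 had another summit, 24.6 kb from it and nearer to S100a7a, with 21 fragments. The type 2 genes were the fatty acid synthase gene Fasn, with 38 fragments, and Ppp1r14c, with 28 fragments inside the gene and, in wildtype, 43 fragments at another summit 1.80 kb beyond it. The wildtype list thus had 1 of 15 further type 1 and 1 of 16 further type 2 genes, against 2.85% of all genes. The ectopic Sox2 list had 0 of either, against 1.53%.

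Further airway genes also had shares near or below the 13.1% of all genes in the deletion list. Of 16 further secretory genes 2 (12.5%) had a summit with Nkx2-1 deletion, the mucin gene Muc4 with 24 fragments and Lypd2 with 29. The ectopic Sox2 list had 1 of 16, Selenbp1, with 19 fragments 15.2 kb upstream, against 1.53% of all genes. The wildtype list had 0 of 16, against 2.85%. Of 17 further ciliated genes the deletion list had Cfap43 alone, on chromosome 19, with 3 summits of 50 to 99 fragments that lay nearer to Gsto1. Their folds were 2.86 to 5.20, and the summit with 99 fragments had the lowest, over a control value of 14. The wildtype list had a separate Cfap43 summit with 21 fragments, 7.07 kb from the gene. E2f5, a factor of multiciliated cells, had none within 50 kb with Nkx2-1 deletion, and a summit 42.6 kb away, inside Car13, with 25 fragments with ectopic Sox2 and 36 in wildtype. The further ciliated genes near a summit were thus 1 of 17 (5.88%) in the deletion list, 1 of 17 (5.88%) in the ectopic Sox2 list and 2 of 17 (11.8%) in the wildtype list, where 13.1%, 1.53% and 2.85% of all genes had one.

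Genes of rarer airway cells (neuroendocrine cells, chemosensory tuft cells and ion-transporting ionocytes) had the highest share of the 5 further lists. With Nkx2-1 deletion 7 of 17 (41.2%) were near a summit, against 13.1% of all genes, on 11 separate summits and none on chromosome 19. The wildtype list had 1 of the 17 (5.88%), Cftr, against 2.85% of all genes, and the ectopic Sox2 list had 0, against 1.53%. No test was run on this list, which was chosen with earlier results of these data known. The part of gene size in its share, with Dclk1 spanning 297 kb and Cftr 152 kb, was not tested.

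Cftr, the chloride channel gene mutated in cystic fibrosis and the hallmark of ionocytes, led it with 4 deletion summits inside the gene, 100.5 to 141 kb from its start, and no other protein-coding gene within 50 kb. They had 66 (51.0 to 84.0), 72 (56.3 to 90.7), 42 (30.3 to 56.8) and 39 (27.7 to 53.3) fragments with folds of 9.65, 6.30, 9.39 and 5.84. In wildtype a single summit was listed in Cftr, with 30 fragments (20.2 to 42.8), in a region that overlapped that of the 72-fragment summit. The control values at Cftr were 1 to 4, against 4 to 6 at Ahnak, and the 72-fragment summit had the value of 4.

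Tuft cell genes made up 4 of the other 6. Dclk1, a kinase gene used as a tuft marker, had 74 fragments (58.1 to 92.9) inside the gene, and Gnat3, the taste G-protein gustducin, had 57 (43.2 to 73.9) 16.3 kb from it. Pou2f3, the master regulator of tuft cells, had 38 fragments 38.7 kb away, inside Arhgef12, and the taste channel gene Trpm5 had a pair of summits in 1 region 45.7 and 46.0 kb away. Resp18, a neuroendocrine gene, had 39 fragments 6.70 kb upstream of its start. Ascl3, an ionocyte factor, had 38 fragments 8.33 kb upstream with a low fold of 3.42, inside Tmem9b. The regulators Insm1 and Foxi1 had none within 50 kb in any list.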

How the data were processed

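Per the submitters' processing notes, Bowtie2 2.2.9, SAMtools 1.4, MACS2 2.1.1 and HOMER 4.8.3 were used with build mm10. Neither the control behind each list nor the calling threshold is stated there. The authors deposited 1 MACS2 narrowPeak list per Sox2 ChIP library, with a score, a fold ratio, −log10 p and −log10 q per summit; none was pooled. ChIP fragments and control background were solved here from the deposited fold ratio and −log10 p (pseudocount of 1, tolerance of 0.005 fragments): 2587 of 2589, 228 of 229 and 549 of 552 summits had a unique solution, and depth is the genome-wide background over the scale. The recovery was tested on simulated data. Overlaps used bedtools 2.31.1 (at least 1 bp), intervals SciPy 1.17.1. Of the 50 genes, 38 have a promoter in the table used.

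Named genes were all members near a summit in any list, those within 100 kb in the deletion list, the defining genes of each lineage, and further lung genes near a summit. Members and lists were chosen with earlier results of these data known. Alternatives were other windows, −log10 q of at least 5, nearest gene, leaving out shared regions or chromosome 19, stricter overlap, other depth scaling and, added after seeing the data, a fold of at least 5.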

Additional observations from a re-analysis of the deposited data

How the results depend on the processing

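No paired analysis was possible because each condition has 1 library; for the same reason no replicate could be left out. The deletion count of 13 genes was 17 within 100 kb, 12 without regions found in all 3 lists, 8 with −log10 q of at least 5, 8 without chromosome 19, 7 by nearest gene and 6 within 10 kb, and its 17 summits were 27, 16, 10, 8 and 10 under the same settings other than nearest gene. Alveolar type 1 genes moved from 7 to 2 within 10 kb, 3 by nearest gene and 4 with −log10 q of at least 5. Alveolar type 2 genes were 0 within 10 kb, with −log10 q of at least 5 or without chromosome 19, and 2 within 100 kb. Secretory genes fell to 1 without chromosome 19. Ciliated genes were 4 within 100 kb and 1 within 10 kb, by nearest gene, without chromosome 19 or without shared regions. The ectopic Sox2 count of 1 became 0 without shared regions, by nearest gene or within 10 kb. The wildtype count of 2 was 0 within 10 kb, 5 within 100 kb and 1 by nearest gene or without shared regions. With an overlap of 50% of both regions, 1 member summit (Tubb4b) was shared with wildtype. The causes were not tested. With a fold of at least 5, added after seeing the data, the counts were 11 in the deletion list, 1 in the ectopic Sox2 list and 2 in the wildtype list. The share of all genes at that fold was not counted, so these counts have no comparison. The lowest summit rests on 15 fragments in the deletion list and on 10 in each of the ectopic Sox2 and wildtype lists.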

Other observations

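Promoter letters were also counted over the lineages, in the 250 bases before the start of the 38 genes with a promoter window. Sox letters (ATTGTT or TTTGTT) were present in 6 of 14 alveolar type 2 genes, 5 of 12 alveolar type 1 genes, 0 of 4 secretory genes and 2 of 8 ciliated genes, where 24.9% of all windows hold them. Nkx2-1 letters (CAAGTG or CTCAAG) were present in 3 of 14 type 2 genes, 3 of 12 type 1 genes, 4 of 4 secretory genes and 0 of 8 ciliated genes, where 22.6% of all windows hold them. These are counts of letters over few genes, and some genes have several windows.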
